A study of Mus musculus with 6 samples.

Results

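The splicing factor genes Srsf1, Srsf2, Srsf3, Srsf4, Srsf5, Srsf6, Srsf7, Srsf11, Tra2a and Tra2b were followed isoform by isoform in the mouse hippocampus. Every row of the deposited isoform table whose transcript name, without its final number, was one of these 10 symbols was taken, which gave 69 of the 133944 isoforms in the table and 10 of its 53354 gene symbols. Both groups carried the Nes-Cre transgene, in which the Nestin promoter drives Cre recombinase through the neural lineage, and were C57BL/6 mice of 3 months of age. The N-cre mice (n = 3) carried Nes-Cre alone and served as controls. The N-cre;Fox1 mice (n = 3) also carried one copy of an Rbfox1 cDNA under the CAG promoter in the Gt(ROSA)26Sor locus, which is switched on when Cre removes a stop cassette. Cre activity of this line in the hippocampus was described by the study in granule cells and pyramidal neurons, so other cells may not have carried the active transgene. Total RNA of the hippocampus was sequenced with a library for each mouse, and RSEM, run by the authors, apportioned the read pairs of each library to annotated isoforms, which gives expected counts.

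SR proteins bind short enhancer sequences in exons through RNA recognition motifs and recruit the splicing machinery through a domain rich in arginine and serine. Tra2a and Tra2b are built in a similar way and bind exons rich in GAA repeats. Genes of this family are known for a form of self-control: their own transcripts can include a poison exon, which carries an early stop codon, or keep an intron, and RNAs with an early stop codon are removed by nonsense-mediated decay (NMD). Rbfox proteins bind the motif TGCATG (in DNA letters) and change the inclusion of nearby exons. Here an isoform was called noncoding when its GENCODE biotype was not protein_coding, and a poison exon was an internal exon of a noncoding isoform lying wholly in an intron of the gene's most abundant protein_coding isoform.

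By this rule 7 of the 10 genes had poison exons, 12 exons in all by distinct coordinates, and Srsf1 and Srsf5 had none. Srsf7 had no noncoding isoform in the table, so the rule could not find a poison exon there. In every gene the rule reaches only exons of the isoforms listed. For 7 of the 12 exons the annotated stop codon of an NMD isoform lay inside the exon. These sequences are shown because they hold the stop codon that sets the poison isoform apart from the coding one. Each runs from the first base of the exon to the end of the stop codon, in GENCODE M21 transcripts of mm10. For Srsf3-201 and Tra2b-206 the M21 transcript is another version than the one RSEM used. The last 3 capitals are the stop codon, and any other capitals mark AGAA, the core of the sequence bound by Tra2 proteins.
Srsf3-201, exon of 456 nt: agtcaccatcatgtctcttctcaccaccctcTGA
Srsf4-203, exon of 207 nt: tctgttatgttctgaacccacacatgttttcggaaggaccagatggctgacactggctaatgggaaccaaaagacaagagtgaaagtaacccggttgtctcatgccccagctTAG
Srsf6-201, exon of 268 nt: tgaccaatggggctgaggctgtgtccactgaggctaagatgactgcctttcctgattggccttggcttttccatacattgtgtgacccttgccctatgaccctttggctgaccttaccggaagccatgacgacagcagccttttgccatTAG
Srsf11-212, exon of 117 nt: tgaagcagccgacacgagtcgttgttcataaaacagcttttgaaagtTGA
Srsf11-210, exon of 109 nt: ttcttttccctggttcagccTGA
Tra2a-202, exon of 306 nt: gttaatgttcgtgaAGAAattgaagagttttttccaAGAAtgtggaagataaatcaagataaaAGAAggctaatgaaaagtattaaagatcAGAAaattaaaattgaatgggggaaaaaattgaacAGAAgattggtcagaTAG
Tra2b-206, exon of 276 nt: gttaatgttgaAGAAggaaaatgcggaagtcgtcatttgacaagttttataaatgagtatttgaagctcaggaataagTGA

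The exons lie at chr17:29039454-29039909 (Srsf3, + strand), chr4:131884276-131884482 (Srsf4, +), chr2:162932815-162933082 (Srsf6, +), chr3:158023243-158023359 and chr3:158024123-158024231 (Srsf11, - strand), chr6:49252803-49253108 (Tra2a, -) and chr16:22258986-22259261 (Tra2b, -). The Tra2a and Tra2b exons began with the same 9 bases and were the most A- and T-rich of the exons shown, at 30.1% and 32.6% G and C, against 43.1% to 51.3% in the others. AGAA occurred 13 times in the whole Tra2a exon and 12 times in the Tra2b exon, overlapping matches included and on the transcript strand only. These densities, 4.25 and 4.35 per 100 nt, lay above those of 99.3% and 99.4% of the 141017 annotated internal exons of at least 100 nt, whose median was 0.725. Of the 11 poison exons of at least 100 nt, 5 had no AGAA, among them those of Srsf3 and Srsf6. The remaining exons, which hold no annotated stop codon of an NMD isoform, were 3 exons of Srsf4, 1 of 64 nt in Srsf11 and 1 of 104 nt in Srsf2. Among those of Srsf4, chr4:131886107-131886304 and chr4:131886131-131886304 overlap and share an end. They were counted as separate exons, here and in the windows below. The Srsf2 exon is in the 3′ part of the transcript and is held by the protein_coding isoform Srsf2-206 as well.

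TGCATG was searched, on the transcript strand, in the poison exons and in the 250 bases on either side, where another annotated isoform (one that keeps the intron, for example) let these bases be read. The motif was in 1 of the 8 upstream windows that could be read and in 3 of the 7 downstream windows. Of all internal exons whose windows could be read the same way, 7.85% of 13338 upstream and 9.37% of 18661 downstream windows held it. The Srsf6 exon was flanked on both sides, with 46 bases between each motif and the exon. The sites are printed with 12 bases on either side because they are the matches to the Rbfox motif in the windows and poison exons that could be read, while the rest of these genes was not searched, and the capitals mark the motif.
Srsf6, upstream, chr2:162932763-162932768: tgttgaaattgtTGCATGttgaattccaac
Srsf6, downstream, chr2:162933129-162933134: aaaatgtagaaaTGCATGtaatcagttaag
Srsf3, downstream, chr17:29040100-29040105: agtgaacttatgTGCATGtgtgagatgcca
Tra2b, downstream, chr16:22258935-22258940: ttttgctaaacaTGCATGcattatttgttt
Tra2b, in the exon, chr16:22259145-22259150: taaaagaaagaaTGCATGctaattatcaga

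The Srsf3 and the downstream Tra2b motifs were 190 and 45 bases from their exons. The motif inside the Tra2b exon began at its base 112, after the stop codon, and 4.32% of all internal exons held the motif. A match describes the sequence only, and no binding was measured in these files.

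The expected counts of the libraries summed to 40463587 to 62141336 per mouse, and the 10 genes took 0.142% to 0.147% of them. For the targeted gene, Rbfox1, the normalized count summed over isoforms (counts scaled by edgeR's TMM factors) overlapped between the genotypes, with 14456 to 15286 in the controls and 13571 to 15939 in the N-cre;Fox1 group. Its short isoform Rbfox1-202 was at 1753, 1778 and 1881 in N-cre and at 2430, 2167 and 2353 in N-cre;Fox1 mice, without overlap. The log2 fold change of Rbfox1-202 was 0.36 ± 0.0587 (SE). The quasi-likelihood test of edgeR gave it an unadjusted p of 0.00069 and an adjusted p of 0.623. With each mouse left out in turn, this log2 fold change stayed between 0.32 and 0.41. The paper reports a modest rise of Rbfox1 mRNA and protein with the transgene. Here the total of the gene did not separate the genotypes, while Rbfox1-202 did. Whether the reads of Rbfox1-202 came from the transgene was not tested, and the genotype labels are used as given. N-cre replicate 3 and N-cre;Fox1 replicate 2 held choroid plexus RNA, with summed markers of 119266 and 268086 normalized counts against 1436 to 1946 in the other 4 mice. Values without both libraries are given for some results and where a sign changed. Neuron, oligodendrocyte, microglia and endothelium markers overlapped between the genotypes. The 4 astrocyte markers, none of them at 0, summed to 66895 to 68154 in the controls and 70946 to 81433 in the N-cre;Fox1 group, and their part in the results below was not tested. Markers of hippocampal pyramidal and granule neurons were present in every mouse, at 44597 or more. Isoforms annotated as retained_intron took 3.47% to 3.64% of all counts in each mouse, and the genotypes overlapped.

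**Figure D1:**
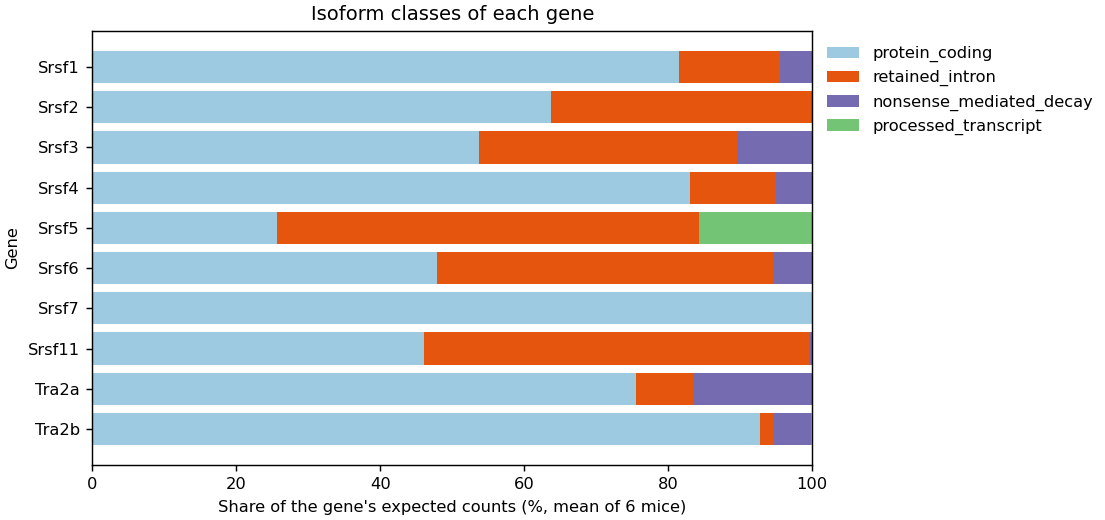
The share of each gene's expected counts on isoforms of each GENCODE biotype, in percent, as the mean of the 6 mice. Srsf5, Srsf6 and Srsf11 had more of their counts on noncoding than on coding isoforms in this mean, although Srsf6 was at 49.0% noncoding in N-cre replicate 2. Counted per length, Srsf1 was also above in this mean, at 51.5%, although it was at 48.6% in N-cre replicate 3.

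Main and minor isoforms were described first over all 6 mice. Of the 69 isoforms, 24 were protein_coding, 26 retained_intron, 14 nonsense_mediated_decay and 5 processed_transcript. The noncoding share of the counts ranged from 7.21% in Tra2b to 74.4% in Srsf5 among the 9 genes that had noncoding isoforms in the table, and its median over these genes was 36.3%, against 8.01% over the 7497 genes with enough counts of both classes. Srsf7, whose protein also takes part in mRNA export, had 1 isoform in the table, Srsf7-201, which is protein_coding, so it had no share. A share counts reads and so gives long isoforms more weight, and total RNA holds unspliced RNA, which these counts cannot tell apart from a kept intron.

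In Srsf5 the most abundant isoform was a noncoding one. Srsf5-212 keeps intron 5 of 7, of 1229 nt, and took 54.8% of the gene's counts over the 6 mice, with a range of 52.8% to 55.9%. The most abundant coding isoform, Srsf5-201, took 12.6%. All bases of Srsf5-212 are shared with other isoforms of the gene. Apart from reads over any splice junction of its own, its count rests on how RSEM divided shared reads. In Srsf6 the coding isoform Srsf6-203 took 47.8% and the noncoding Srsf6-204 took 46.7%. Srsf6-204 keeps intron 2 of 5, of 1283 nt, which is the intron that contains the poison exon and both TGCATG motifs printed above, and 1015 of its bases are in no other isoform. Srsf6-201, the NMD isoform with the poison exon spliced in, took 5.48%.

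Srsf3, whose protein is the smallest of the family and also acts in mRNA export, had 53.7% of its counts on the coding isoform Srsf3-202. The retained_intron isoforms Srsf3-204 and Srsf3-205 took 24.6% and 11.4%, and the poison exon isoform Srsf3-201 took 10.4%. Srsf3-204 keeps intron 3, of 2150 nt, around the poison exon, and also intron 4, of 393 nt, which holds no poison exon. In Srsf2 the coding isoform Srsf2-201 took 60.5% and Srsf2-203, which keeps the last intron of 1059 nt, took 36.0%. Srsf2 overlaps Mettl23 and Mfsd11 on the other strand, and whether RSEM used the strand of the reads was not given in the sources used here. In Srsf11, an SR-related gene with 19 isoforms in the table, the coding Srsf11-202 took 37.7%, and the largest noncoding isoforms were Srsf11-213, with 18.5% to 20.8% in each mouse, and Srsf11-208, with 13.6% to 16.6%.

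Isoforms that hold the poison exon took the larger part of the noncoding counts in Tra2a and Tra2b, and in Srsf4 only when counted per length (11.6% of the gene against 8.37% on the retained_intron isoform). Tra2a-202 took 16.6% of the counts of Tra2a, and its poison exon of 306 nt lies in no other isoform. Tra2b-206 took 5.16% of the counts of Tra2b, whose coding isoforms Tra2b-204 and Tra2b-201 took 64.2% and 28.6%. In Srsf4 the coding Srsf4-202 took 83.0%, the retained_intron isoform Srsf4-201 took 11.9%, and the NMD isoforms Srsf4-204 and Srsf4-203 took 4.26% and 0.832%. The poison exon share of Srsf11, 10.3%, came almost wholly from Srsf11-203 (9.81%), which is annotated as retained_intron and holds the exon of 64 nt. In Srsf1, the first SR protein to be purified as a splicing factor, 4 noncoding isoforms took 18.6%, most of it on Srsf1-203 with 13.0%, beside 43.0% and 35.7% on the coding Srsf1-205 and Srsf1-201. Counted per length the noncoding share of Srsf1 was 51.5%, with a range of 48.6% to 54.2%. Srsf1-203 was then its highest isoform, at 76.7 TPM against 54.4 for Srsf1-201 and 35.9 for Srsf1-205. All bases of Srsf1-203 lie in coding isoforms, so apart from reads over any splice junction of its own, its count rests on how RSEM divided shared reads. In counts the NMD isoform Srsf1-204 took 4.49% and has no base of its own. Srsf2-202, Srsf3-203 and Srsf5-204 were listed at 0 in all 6 mice. None of them has a base of its own, so a 0 also rests on how RSEM divided shared reads. Counting error alone allows 3 counts at a count of 0, which is at most 0.0549% of the counts of Srsf2, 0.0522% of those of Srsf3 and 0.0198% of those of Srsf5 in the mouse with the fewest.

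Levels of different genes were compared per length, as TPM computed from the expected counts and the annotated isoform lengths. Srsf5 was highest, at 496.9 ± 17.6 TPM (SD, n = 6), followed by Srsf1 at 207 ± 10.6, Srsf11 at 178 ± 5.01 and Srsf2 at 173 ± 2.30. Srsf6 (124 ± 3.19), Srsf3 (119.7 ± 4.30), Tra2a (99.2 ± 2.86), Srsf7 (88.0 ± 2.81), Tra2b (75.8 ± 2.79) and Srsf4 (68.7 ± 1.62) followed. Srsf11 and Srsf2 overlapped between mice, as did Srsf6 and Srsf3, while every other pair of neighbours in this order was separated in all 6 mice.

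**Figure D2:**
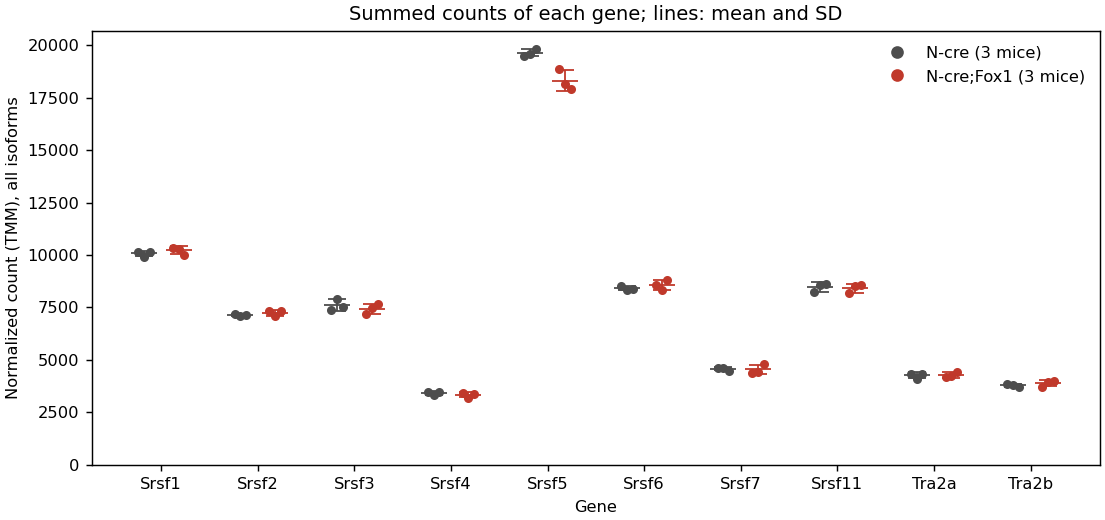
Normalized counts (TMM) summed over all isoforms of each gene, by genotype. Each point is a mouse, and the lines give the mean and SD. The genotypes overlapped in every gene but Srsf5, in which the 3 N-cre;Fox1 mice sat between 17916 and 18884 and the 3 N-cre mice between 19496 and 19842.

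The first comparison of the genotypes asked whether the summed counts of the genes differed. In none of the 10 genes did they pass the test: 0 of 10 stayed under 0.05 after Benjamini-Hochberg adjustment in edgeR, in DESeq2 or in limma-voom, where edgeR called 0.0264% of all 18924 genes tested. Of the 10 genes, 5 lay above and 5 below the controls, and the median log2 fold change was -0.00134, against -2.35e-05 over all genes. In a whole hippocampus, fewer cells of a type and less RNA per cell cannot be told apart.

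Srsf5, which binds exonic enhancers and takes part in alternative splicing, was the gene with the widest difference. Its normalized count was 19496, 19607 and 19842 in N-cre replicates 1 to 3 and 18884, 18150.3 and 17916 in N-cre;Fox1 replicates 1 to 3. All 3 N-cre;Fox1 mice were below all 3 N-cre mice, as was the case in 1 of the 10 genes, and genotypes did not overlap in 12.1% of all genes tested. The log2 fold change was -0.10 ± 0.0375 (SE), a difference of -6.78% with a 95% interval of -12.0% to -1.25%, at an unadjusted p of 0.0217 and an adjusted p of 0.773 in edgeR. An unadjusted p under 0.05 was reached by this 1 of the 10 genes and by 6.19% of all genes. Srsf5 was lower in N-cre;Fox1 mice both in the pair of mice with high Xist counts (replicate 1 of each genotype) and in the other 4, and without the 2 libraries with choroid plexus RNA its log2 fold change was -0.09. All 9 Srsf5 isoforms that passed the count filter were lower, from -0.91 to -0.00800 on the log2 scale, although none passed the test. These isoforms make up nearly all of the sum and most have no base of their own, so their shared direction adds no separate evidence.

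The other 9 genes lay between -0.035 (Srsf3) and 0.032 (Tra2b) on the log2 scale, and their genotypes overlapped. Their 95% intervals bound how large a difference could have been missed. Srsf7, the gene with a single isoform, was at 4601, 4628 and 4490.3 in N-cre and at 4397, 4437 and 4794 in N-cre;Fox1 mice, and its interval ran from -6.57% to 5.60%. For Tra2b, at 3862, 3796 and 3728 in N-cre and 3713, 3932 and 3998 in N-cre;Fox1 mice, the interval ran from -3.42% to 8.22%, the highest upper end of the 10 genes. For Srsf3 it ran from -8.18% to 3.77% and for Srsf4 from -7.93% to 3.63%.

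**Figure D3:**
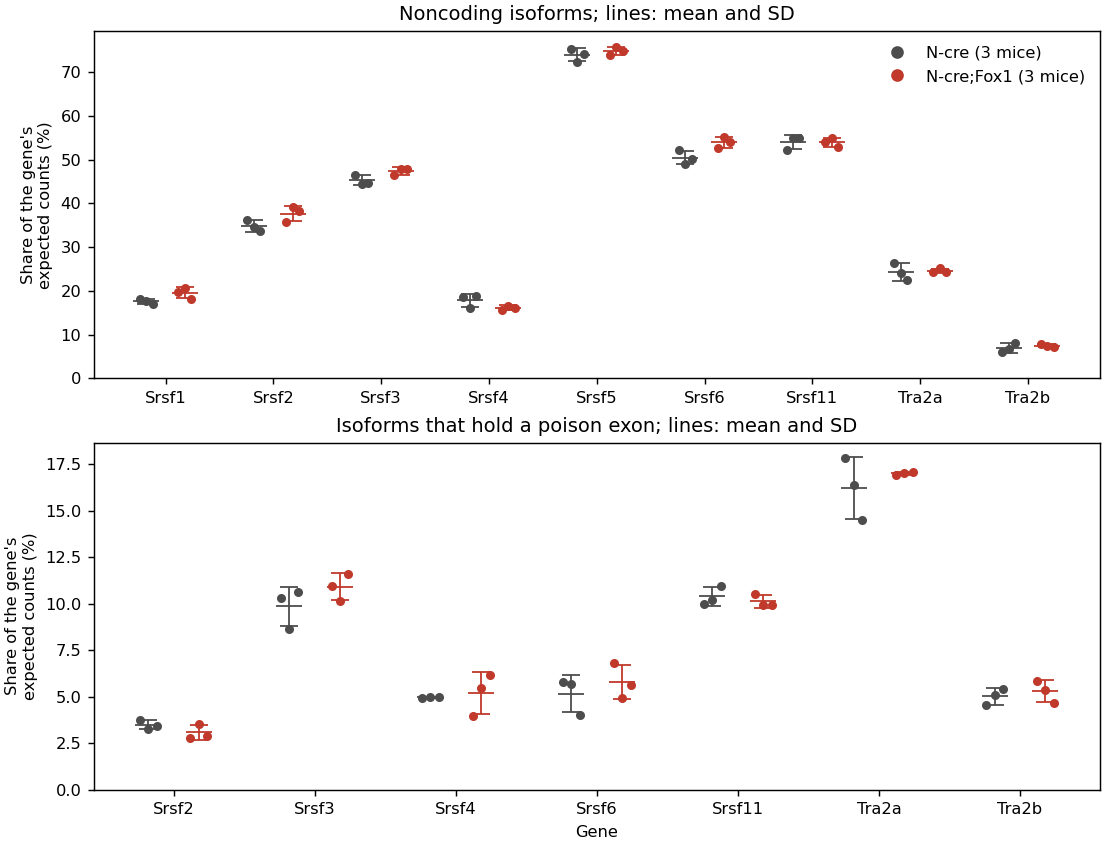
Share of each gene's expected counts, in percent, on noncoding isoforms (top) and on isoforms that hold a poison exon (bottom), by genotype. Each point is a mouse and the lines give the mean and SD. The genotypes did not overlap for the noncoding share of Srsf1 and Srsf6, and overlapped in all other genes and for every poison exon share.

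The next comparison asked whether the balance of noncoding and coding isoforms within a gene differed, which does not depend on library size. In Srsf6 the noncoding share was 52.1%, 49.0% and 50.2% in N-cre and 52.6%, 55.1% and 54.1% in N-cre;Fox1 mice, a difference of 3.45 percentage points, and all 3 N-cre;Fox1 mice were above all 3 N-cre mice. In Srsf1 it was 18.1%, 17.7% and 17.0% in N-cre and 19.8%, 20.7% and 18.2% in N-cre;Fox1 mice, a difference of 1.96 points without overlap. In both genes the exact permutation test (two-sided) gave p = 0.1, the smallest value that 3 against 3 mice allow, and an adjusted p of 0.45 over the 9 genes. Shares did not overlap in 2 of the 9 genes, and in 11.4% of the 7497 genes. Counted per length the genotypes of Srsf1 overlapped and those of Srsf3 no longer did, with 41.9% ± 1.00 in the controls and 44.3% ± 0.833 in the N-cre;Fox1 group (SD, n = 3 each). The lengths of the Srsf3 isoforms with counts come from other transcript versions than those RSEM used.

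The noncoding share was higher in N-cre;Fox1 mice in 8 of the 9 genes, with a median difference of 0.879 points, and it was higher in 52.2% of all 7497 genes, with a median of 0.0235 points. The differences were 2.82 points in Srsf2 and 2.14 points in Srsf3, and under 1 point in Srsf5, Srsf11, Tra2a and Tra2b. Srsf4 was the exception, at 18.5%, 16.1% and 18.9% in N-cre and 15.6%, 16.6% and 16.2% in N-cre;Fox1 mice, with overlap. The directions of Srsf11, Tra2a and Tra2b turned when single libraries were left out. Without both libraries with choroid plexus RNA, the differences were 2.73 points in Srsf6 and 1.09 points in Srsf1, and -0.985 points in Tra2a.

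The same balance was tested across all genes as the log2 ratio of noncoding to coding counts in limma, a test added after the data were seen. No member passed, 0 of 9, with a background of 0.0133% of the 7497 genes. Srsf6 had a log2 ratio 0.20 ± 0.0734 (SE) higher in N-cre;Fox1 mice, with a 95% interval of 0.0283 to 0.371, an unadjusted p of 0.0279 and an adjusted p of 0.876. It was the 1 gene of the 9 with an unadjusted p under 0.05, as were 5.42% of all genes. Srsf1 (0.19 ± 0.0854) and Srsf2 (0.18 ± 0.0830) were next, both with adjusted p of 0.876 in limma.

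The isoforms behind the Srsf6 difference moved in opposite directions without passing the test. The intron-keeping Srsf6-204 was at 3964, 3617 and 3878 normalized counts in N-cre and at 3932, 4175.5 and 4255 in N-cre;Fox1 mice, and 2 of these 3 mice were above all N-cre mice. The coding Srsf6-203 was at 4099.5, 4249.7 and 4169 in N-cre and at 4071, 3729 and 4037 in N-cre;Fox1 mice, without overlap. The poison exon isoform Srsf6-201 was at 498, 473 and 338 in N-cre and at 584, 410.2 and 497 in N-cre;Fox1 mice, with overlap. Their log2 fold changes were 0.11 ± 0.0511, -0.081 ± 0.0450 and 0.19 ± 0.195 (SE), at adjusted p of 0.990 each in edgeR. Without both libraries with choroid plexus RNA, the log2 fold change was 0.11 for Srsf6-204 and -0.042 for Srsf6-203. In Srsf1 the retained_intron isoform Srsf1-203 was at 1289, 1205 and 1165 in N-cre and 1464, 1539.5 and 1239.9 in N-cre;Fox1 mice, and the NMD isoform Srsf1-204 was at 432, 446 and 428 against 475, 480.1 and 471, without overlap. Neither isoform has a base of its own. The log2 fold change of Srsf1-203 was 0.21, and 0.12 without both libraries with choroid plexus RNA.

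The share of isoforms that hold a poison exon was compared in the same way. The poison exon share overlapped between the genotypes in 7 of 7 genes, while it did not overlap in 9.72% of 1193 genes with a tested isoform of this kind. In Tra2a it was 17.8%, 16.4% and 14.5% in N-cre and 16.9%, 17.1% and 17.1% in N-cre;Fox1 mice. In Srsf3 it was 10.3%, 8.64% and 10.6% in N-cre and 10.9%, 10.2% and 11.6% in N-cre;Fox1 mice, the widest difference of the 7, at 1.05 points. In Tra2b it was 4.55%, 5.09% and 5.44% in N-cre and 5.86%, 5.38% and 4.66% in N-cre;Fox1 mice, and in Srsf6, 5.81%, 5.67% and 4.03% against 6.79%, 4.93% and 5.65%. Differences were -0.404 points in Srsf2 and -0.273 points in Srsf11, with overlap. In Srsf2 RSEM placed the counts wholly on Srsf2-206, a protein_coding isoform that holds the exon, and none on the NMD isoform Srsf2-202. These isoforms, of 1326 and 1336 nt, have no base of their own, so the split between them is uncertain. The exact permutation test gave p of 0.3 to 0.7 and an adjusted p of 0.7 in each of the 7 genes.

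**Figure D4:**
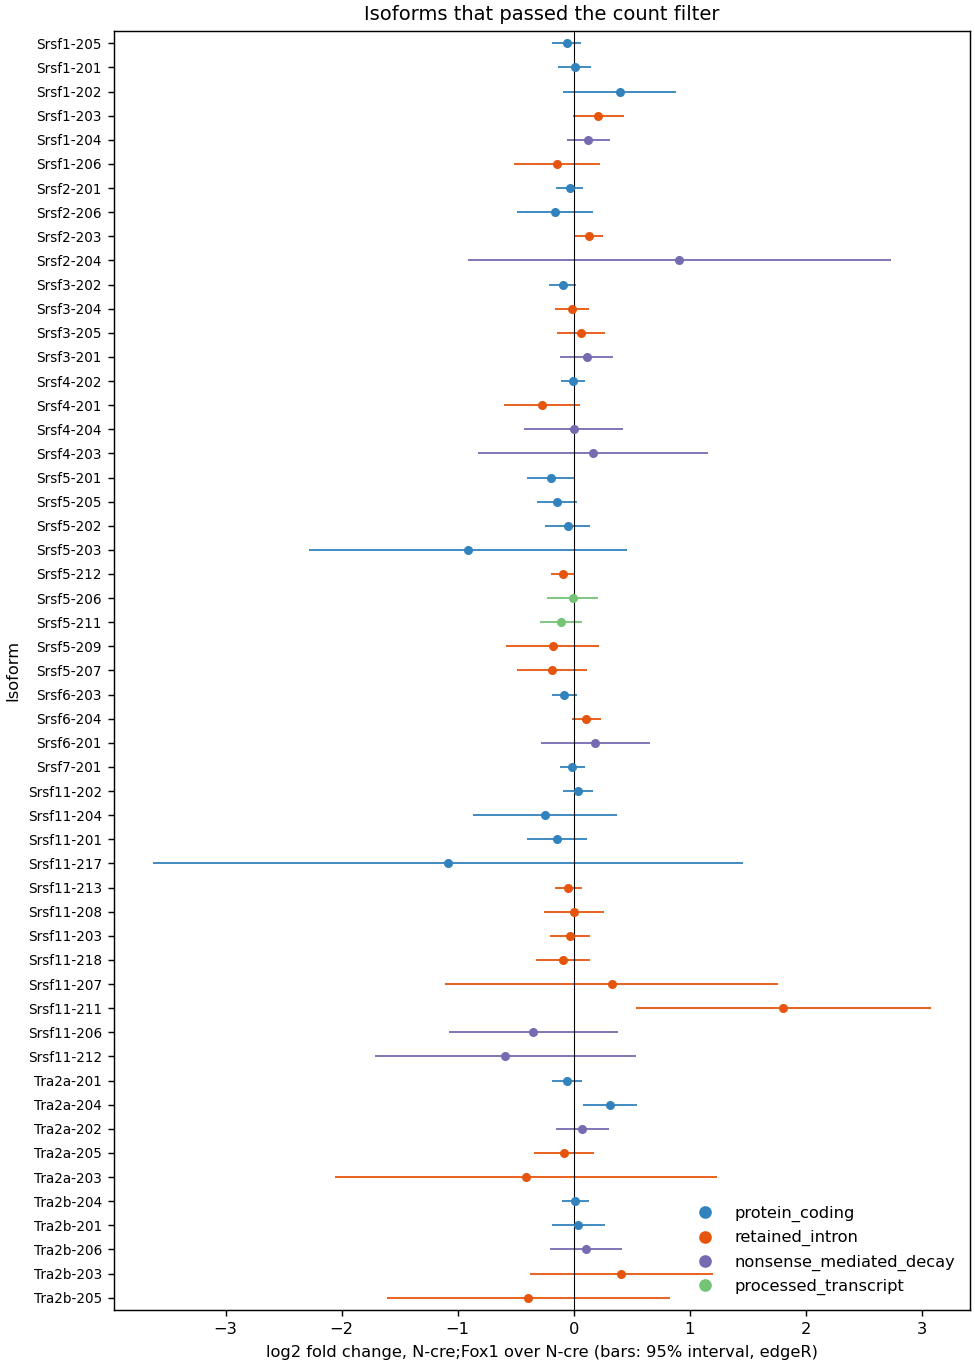
The log2 fold change of the 53 isoforms that passed the count filter, N-cre;Fox1 over N-cre, with 95% intervals from edgeR and colours for the biotype. Most isoforms lay close to 0, and the intervals of Srsf11-211, Tra2a-204 and Srsf2-203 did not reach 0.

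Single isoforms were compared last. Of the 69 isoforms, 53 passed the count filter and 0 passed an adjusted p of 0.05 in edgeR, where 0% of the 50556 isoforms tested were called. DESeq2 and limma-voom also called 0 of the 53. In edgeR 3 isoforms had an unadjusted p under 0.05, all 3 higher in N-cre;Fox1 mice, while 4.78% of all isoforms had one. Without a single library this count ranged from 1 (without N-cre replicate 3) to 6 (without replicate 1 of either genotype), and it was 2 without N-cre;Fox1 replicate 2. It was also 2 without both libraries with choroid plexus RNA. Genotypes did not overlap in 5 of the 53, against 11.5% of all isoforms. Of the 10 NMD isoforms tested 7 were higher, of the 20 retained_intron isoforms 8, and of the 21 protein_coding isoforms 6, with median log2 fold changes of 0.11, -0.041 and -0.057, against 0.015, 0.0098 and 0.0038 over all tested isoforms of these biotypes.

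The widest difference among the 3 was in Srsf11-211, a retained_intron isoform of 521 nt at the 3′ end of Srsf11. It had 25.5, 31.6 and 7.03 normalized counts in N-cre and 78.8, 62.5 and 86.1 in N-cre;Fox1 mice, and all 3 N-cre;Fox1 mice were above all N-cre mice. Its log2 fold change was 1.81 ± 0.526 (SE), with a 95% interval of 0.534 to 3.08, an unadjusted p of 0.0128 and an adjusted p of 0.984 in edgeR. It took 0.577% of the counts of Srsf11, of its bases 86.2% lie in coding isoforms, and 72 are in no other isoform.

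Tra2a-204, a coding isoform with no base of its own, was at 487, 449.9 and 423 in N-cre and at 595, 518 and 574 in N-cre;Fox1 mice, without overlap. Its log2 fold change was 0.31 ± 0.0974 (SE), at an adjusted p of 0.990 in edgeR. The main coding isoform Tra2a-201 was at 2710, 2658 and 2945 in N-cre and 2567, 2657 and 2764 in N-cre;Fox1 mice, with overlap, and the sum of the gene differed by 0.49% with an interval of -5.14% to 6.46%. Srsf2-203, the intron-keeping isoform of Srsf2, was at 2605, 2428 and 2395 in N-cre and at 2604, 2722 and 2789 in N-cre;Fox1 mice. N-cre replicate 1 and N-cre;Fox1 replicate 1 were within 2 counts of each other, so the genotypes overlapped. The log2 fold change of Srsf2-203 was 0.13 ± 0.0501 (SE), at an adjusted p of 0.990 in edgeR. Mfsd11, which overlaps Srsf2 on the other strand, was at 1813 to 1905 in the controls and 1909 to 1991 in the N-cre;Fox1 group, and its part in the count of Srsf2-203 was not tested.

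The relative use of isoforms within a gene was also tested with edgeR's diffSpliceDGE. Of 52 isoforms tested, 0 passed at 0.05, with a background of 0.217% of 42441 isoforms, and limma's diffSplice called 0, with a lowest adjusted p of 0.0916 and a background of 0.408% of the same isoforms. Srsf11-211 was the 1 isoform with an unadjusted p under 0.05 in diffSpliceDGE (adjusted p of 0.604), and 2.03% of all isoforms had one. With at least 10 counts required in every mouse, which leaves Srsf11-211 out, 0 of 46 isoforms had one. On simulated data diffSpliceDGE recovered few of the changed isoforms and most of its calls were false, so the count of 0 that passed says little. In limma's diffSplice 6 of the 52 had an unadjusted p under 0.05, as had 8.78% of all isoforms. Relative to their genes, Srsf1-202, Srsf1-203, Srsf11-211 and Tra2a-204 were higher and Srsf1-205 and Srsf6-203 lower in N-cre;Fox1 mice.

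Genes that act with SR proteins did not pass the test either, in 4 lists of gene sums. Of 32 other SR and SR-related genes, 0 passed and 0 had an unadjusted p under 0.05, with a median log2 fold change of -0.011. Of 16 genes for kinases, phosphatase and transport of SR proteins, 0 passed, 12 were higher and 4 lower, and the median was 0.037. An unadjusted p under 0.05 was reached by 2 of them, both kinases that phosphorylate SR proteins. Dyrk1a was at 3641, 3724 and 3438 in N-cre and 3967, 3726 and 3958 in N-cre;Fox1 mice, and Clk3 at 4805, 4442 and 4679 in N-cre and 4879, 4887 and 5083 in N-cre;Fox1 mice. Neither overlapped between genotypes, although for Dyrk1a the nearest mice of the genotypes were about 1 count apart, and their adjusted p were 0.778 and 0.799 in edgeR. Over all genes tested, 12.1% did not overlap and 6.19% had an unadjusted p under 0.05. Of 23 genes of nonsense-mediated decay and the exon junction complex, 0 passed and 15 were higher, with a median of 0.025. Of 21 hnRNP genes, whose proteins often act against SR proteins at splice sites, 0 passed, and 1, Syncrip, had an unadjusted p under 0.05, at a log2 fold change of 0.085 ± 0.0367 (SE) and an adjusted p of 0.799 in edgeR. With DESeq2 and limma-voom 0 of the 92 genes passed as well. Of the 92, 3 had an unadjusted p under 0.05 in edgeR, and this count was 11 without N-cre;Fox1 replicate 1, 0 without N-cre;Fox1 replicate 3 and 5 without N-cre replicate 1.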

How the data were processed

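RNA of 6 hippocampi was sequenced from TruSeq Stranded Total RNA libraries. The authors removed adapters (Cutadapt 1.18), aligned to mm10 (STAR 2.5.2b, two-pass mode) and deposited the RSEM 1.3.0 expected counts (GENCODE M16), which are neither normalized nor filtered. Biotypes, exons, lengths and sequences were read from GENCODE M21 by transcript identifier, with 63 of the 69 isoforms at the same version and 6 at another. The 6 are Srsf3-201, Srsf3-202, Srsf3-204, Srsf3-205, Srsf7-201 and Tra2b-206. Their exons, lengths and sequences may differ from those RSEM used. Sequence of introns was read only where an annotated isoform holds it.

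Expected counts were rounded for edgeR 4.0.16, limma 3.58.1 and DESeq2 1.42.0 in R 4.3.3. Isoforms and gene sums with low counts were removed with filterByExpr (minimum count 10, minimum total 15), TMM factors applied, and genotypes compared with the robust quasi-likelihood test, with genotype as the only term and p-values adjusted (Benjamini-Hochberg) over every tested isoform or gene. Shares of expected counts were compared by exact permutation tests, two-sided, in SciPy 1.17.1. The log2 ratio of noncoding to coding counts (0.5 added to each) was tested in limma for genes with at least 10 counts of each class in 3 mice. The fits were tested on simulated data.

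Depth was 40463587 to 62141336 expected counts per mouse. Each replicate is a separate mouse, with 3 per genotype, and floors cover counting error only. Named isoforms were the main and the most abundant noncoding isoform of each gene, any isoform with an unadjusted p under 0.05, and, per gene list, up to 5 genes by the same rule. Other isoforms, named to describe classes, Rbfox1-202 and Mfsd11 were chosen after their values were seen. The members, lists and rules were chosen with earlier results of these data known. Alternatives covered normalization, tool, filter, rounding, replicate block, a term for mice with Xist above 1000, a threshold of 0.01, length scaling and each mouse left out. The ratio test and the fits without both libraries with Ttr above 10000 counts were added after the data were seen.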

Additional observations from a re-analysis of the deposited data

How the results depend on the processing

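No member isoform, member gene or listed gene passed an adjusted p of 0.05 under any alternative run, and 0 passed 0.01. Among the listed genes the lowest adjusted p in edgeR was 0.778 with all mice and 0.0550 without N-cre;Fox1 replicate 1, close to the threshold. The values that changed sign had not passed the test, and the cause was not tested. With both libraries with choroid plexus RNA left out, the log2 fold change was 0.015 for Srsf2-201, 0.027 for Srsf4-202, -0.0016 for Srsf11-202 and 0.0072 for Srsf4, the noncoding share differed by -0.0080 points in Srsf11 and -0.985 in Tra2a, and the poison exon share by 0.110 points in Srsf11 and -0.101 in Tra2a. Upper quartile normalization gave -0.0029 for Tra2a. Setting all isoforms but the most abundant one in place of the class gave -0.371 points in Srsf5 and -1.16 in Srsf11 for the noncoding share, and 2.41 in Srsf2 and -1.71 in Srsf4 for the poison exon share. This is another measure, so its signs say little about the class shares. In Srsf5 the most abundant isoform is itself noncoding, and in Srsf2 and Srsf4 the set is far larger than the poison exon class. With only isoforms that passed the filter, the noncoding share of Srsf11 differed by -0.0139 points.

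With each mouse left out in turn, log2 fold changes ranged from -0.074 to 0.0010 for Srsf2-201, -0.056 to 0.023 for Srsf3-204, -0.033 to 0.027 for Srsf4-202, -0.055 to 0.0084 for Srsf7-201, -0.017 to 0.042 for Tra2b-204, -0.050 to 0.018 for Srsf7, -0.027 to 0.016 for Srsf11, -0.017 to 0.030 for Tra2a and -0.033 to 0.076 for Rbfox1. Noncoding shares ranged from -0.915 to 0.516 points in Srsf11, -0.691 to 1.27 in Tra2a and -0.0037 to 1.10 in Tra2b, and poison exon shares from -0.242 to 0.846 in Srsf4, -0.478 to 0.0141 in Srsf11, -0.0858 to 1.58 in Tra2a and -0.0051 to 0.595 in Tra2b. The noncoding share of Srsf6 stayed between 2.73 and 4.27 points higher and that of Srsf1 between 1.39 and 2.64. Srsf5 stayed between -0.118 and -0.0855 on the log2 scale, and its unadjusted p was under 0.05 in 3 of these 6 fits, without N-cre replicate 1 and without N-cre;Fox1 replicates 1 or 2.

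Same-numbered mice of the 2 genotypes deviated together in 1 pair only (r = 0.709, -0.242 and -0.387 over 13746 genes), so the numbers were not taken to pair the mice. Of differently numbered mice, N-cre replicate 3 and N-cre;Fox1 replicate 2 had r = 0.755. For N-cre replicate 2 and N-cre;Fox1 replicate 3 it was 0.554, and the remaining pairs were negative. The main fit has no term for such shared deviations. With the replicate number as a block, 0 member isoforms and 0 member genes passed, and Srsf5 had a log2 fold change of -0.10. DESeq2's Wald test called 215 of all isoforms and 50 of all genes, where edgeR called 0 and 5, and placed Rbfox1-202 (0.36) past the threshold. Over all isoforms, edgeR called 10 with no filter, 6 with at least 10 counts in every mouse and 1 with unrounded counts. Over all genes it called 45 with no filter, 11 with the Xist term and 2 (without N-cre replicate 2) to 28 (without N-cre;Fox1 replicate 1) with a mouse left out. In isoform use, diffSpliceDGE called 92 of all isoforms and limma's diffSplice 173. Depth limits isoforms with few counts: those that missed the filter were not tested. Of the 53 that passed, 23 have no base of their own. Apart from reads over any splice junction of their own, which were not counted, their counts rest on how RSEM divided shared reads.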
